A study of Homo sapiens with 8 samples.

Results

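The 43 genes described here act in the entry into, passage through and exit from mitosis. They were listed by symbol and by role, as 7 mitotic kinases, 5 cyclins and CDC25 phosphatases, 6 genes of the spindle checkpoint, CDC20 and separase, 9 kinesins, 7 centromere and kinetochore proteins, 3 further subunits of the chromosomal passenger complex, 4 spindle and cytokinesis factors, and FOXM1 with MKI67. Each symbol was matched to an Ensembl gene of the count tables, which hold 63677 genes, and all 43 were found. By the labels, RNA was sequenced from JJN3 and H929, established cell lines of multiple myeloma (MM), a cancer of plasma cells. For 24 h the cells received either 50 nM THZ1, which inhibits the kinase CDK7 covalently, or the vehicle DMSO. The 4 groups, JJN3 with DMSO, JJN3 with THZ1, H929 with DMSO and H929 with THZ1, hold 2 libraries each, 8 in all. The labels name no other agent or allele, and each names 1 cell line, so the libraries do not represent MM in general. Whether the libraries labelled H929 come from 1 line is taken up below. Nothing in the labels says that replicate libraries came from separate cultures, so p-values measure the spread between these libraries, which may be technical.

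Entry into mitosis is driven by CDK1 bound to cyclin B (CCNB1 or CCNB2), which CDC25 phosphatases activate and which PLK1 and the Aurora kinases work beside. During mitosis, kinesins and TPX2 build the spindle, the kinetochore (CENP proteins and the NDC80 complex) holds the chromosomes to microtubules, and the checkpoint proteins BUB1, BUB1B, BUB3, TTK and MAD2L1 keep CDC20 from releasing separase until all chromosomes are attached. Most of these genes are transcribed late in the cell cycle, where the DREAM complex represses and MYBL2 with FOXM1 activates their promoters, so their transcripts are commonly read as a sign of proliferation. CDK7, the target of THZ1, phosphorylates both the cell cycle CDKs and the C-terminal domain of RNA polymerase II. MM cell lines divide continuously, whereas normal plasma cells rarely do.

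Total counts were between 17476443 and 19194371 per library, and a count of 3, the most that a count of 0 allows, was worth 0.156 to 0.172 CPM (counts relative to library size). This limit covers counting error only, since reads are not independent molecules. Plasma cell markers were read at 10 counts or more for 9 of 9 genes in the JJN3 libraries and in those labelled H929 THZ1, and for 8 of 9 in those labelled H929 DMSO, where the counts of SLAMF7 were 2 and 174. They summed to 63129 and 65500 counts under the H929 DMSO label and 223570 and 224893 under the H929 THZ1 label, and TNFRSF17 alone was read 854 and 1005 times (DMSO) and 11828 and 11699 times (THZ1). In JJN3 their sums were 81997 and 83050 (DMSO) and 68192 and 71205 (THZ1). The 4 myeloid markers summed to at most 20 counts and the 3 erythroid ones to at most 29 in any library. B cell markers (5 genes) summed to 529 and 539 (DMSO) and 1094 and 1150 (THZ1) in JJN3, and to 118 and 127 (DMSO) and 540 and 546 (THZ1) under the H929 labels. Most of the JJN3 sums was BACH2, read 482 and 452 times (DMSO) and 1113 and 1076 times (THZ1), while CD22 was at 0 in all 8 libraries. T cell markers (4 genes) summed to 41 and 48 (DMSO) and 95 and 98 (THZ1) in JJN3, and to 18 and 34 (DMSO) and 694 and 699 (THZ1) under the H929 labels, where CD3E had 640 and 650. The part of these shifts in the changes of the mitotic genes was not tested. H929 is known for a translocation that activates FGFR3 and NSD2. The 5 marker genes of line translocations were MAF, FGFR3, NSD2, CCND1 and CCND2. Their counts summed to 37751 to 40098 under the H929 DMSO label and 42139 to 42373 under the H929 THZ1 label. All 5 had 10 counts or more under both labels, and NSD2, CCND1 and CCND2 are not given separately here. FGFR3 was read 14117 and 13411 times under the H929 THZ1 label and 45 and 285 times under the H929 DMSO label, whereas MAF was read 2729 and 2942 times under the THZ1 label and 18006 and 16310 times under the DMSO label. The study describes MAF as aberrantly activated in H929. It also reports that a lower dose of THZ1 reduced MAF mRNA in JJN3 and H929. Across all genes, the log2 CPM of the H929 DMSO and THZ1 labels correlated at 0.777 to 0.812, no higher than between JJN3 and the H929 labels at the same treatment (0.795 to 0.812), whereas DMSO and THZ1 of JJN3 correlated at 0.966 to 0.972. Whether the libraries under the 2 H929 labels come from 1 line was not tested, and below they are called libraries labelled H929. In a difference between them, treatment and the source of the cells cannot be told apart.

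The promoter windows of these genes are shown first, because the genes are often treated as 1 programme with shared elements. RefSeq's promoter table (GRCh38.p14, 250 bases before to 50 bases after an annotated start) had a window for 37 of the 43 genes. The promoters of FOXM1, BIRC5, BUB3, AURKA, TPX2 and TTK were not analysed here. The letters TTTGAA or TTCGAA, the core of the cell cycle genes homology region (CHR) that DREAM and MYBL2 complexes are known to bind, and CCAAT, the core of the site of NF-Y, were searched on both strands, and matches that overlap were counted separately. CHR letters were in 27 of the 37 windows (73.0%), compared with 16.6% of all 27305 windows. CCAAT was in 27 (73.0%), compared with 35.7% of all windows, and both were in 21 (56.8%), compared with 6.58%. Of the 34 CHR matches in the 37 windows, 29 (85.3%) began between 60 bases before the start and the end of the window, a stretch that held 29.4% of the CHR matches of all windows. The upstream bases of 5 windows are printed in lower case with CHR and CCAAT letters in capitals, 5′ to 3′ on the strand of the gene. PLK1 (chr16:23678639-23678888, plus strand), ESPL1 (chr12:53268049-53268298, plus strand) and PRC1 (chr15:90994536-90994785, minus strand) are shown as examples with 1 CCAAT match upstream of 1 CHR match. KIF11, KIF14, KIF18A, KIF23, KIF4A and MAD2L1 share this layout and are not printed. In ESPL1 the CCAAT match is on the other strand and reads ATTGG. SPC24 (chr19:11155783-11156032, minus strand) has CCAAT only, and CENPE (chr4:103198344-103198593, minus strand) neither.
PLK1: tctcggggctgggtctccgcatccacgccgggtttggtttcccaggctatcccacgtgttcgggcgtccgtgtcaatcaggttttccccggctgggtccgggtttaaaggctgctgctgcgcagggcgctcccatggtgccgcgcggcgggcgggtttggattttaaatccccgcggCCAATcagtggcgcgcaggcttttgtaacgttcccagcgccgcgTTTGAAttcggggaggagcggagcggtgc
ESPL1: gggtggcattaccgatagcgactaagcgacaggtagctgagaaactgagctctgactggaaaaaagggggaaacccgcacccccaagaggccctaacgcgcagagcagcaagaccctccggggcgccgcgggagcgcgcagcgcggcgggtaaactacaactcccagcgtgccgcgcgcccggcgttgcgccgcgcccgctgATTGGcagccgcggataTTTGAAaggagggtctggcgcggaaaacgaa
PRC1: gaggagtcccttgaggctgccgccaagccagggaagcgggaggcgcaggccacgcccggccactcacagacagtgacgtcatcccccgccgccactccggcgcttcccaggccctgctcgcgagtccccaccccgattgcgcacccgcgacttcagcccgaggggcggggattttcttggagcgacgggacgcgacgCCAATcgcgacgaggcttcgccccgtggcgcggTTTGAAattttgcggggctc
SPC24: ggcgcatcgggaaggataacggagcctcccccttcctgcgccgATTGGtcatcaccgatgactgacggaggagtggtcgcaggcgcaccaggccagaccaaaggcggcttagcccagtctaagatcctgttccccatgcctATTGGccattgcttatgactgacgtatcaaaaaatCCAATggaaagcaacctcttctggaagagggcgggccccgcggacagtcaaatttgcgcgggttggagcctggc
CENPE: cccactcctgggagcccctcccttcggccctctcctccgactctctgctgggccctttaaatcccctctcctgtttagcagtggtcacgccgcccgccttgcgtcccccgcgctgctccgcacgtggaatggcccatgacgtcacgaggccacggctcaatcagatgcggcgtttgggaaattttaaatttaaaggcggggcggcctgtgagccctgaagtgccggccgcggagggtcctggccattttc
The CHR match began 29 bases upstream of the start in PLK1, 31 bases upstream in ESPL1 and 20 bases upstream in PRC1, with CCAAT at 73, 48 and 53 bases. A match is a description of letters and shows no binding, and a window without one says only that these letters are not in it.

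**Figure D1:**
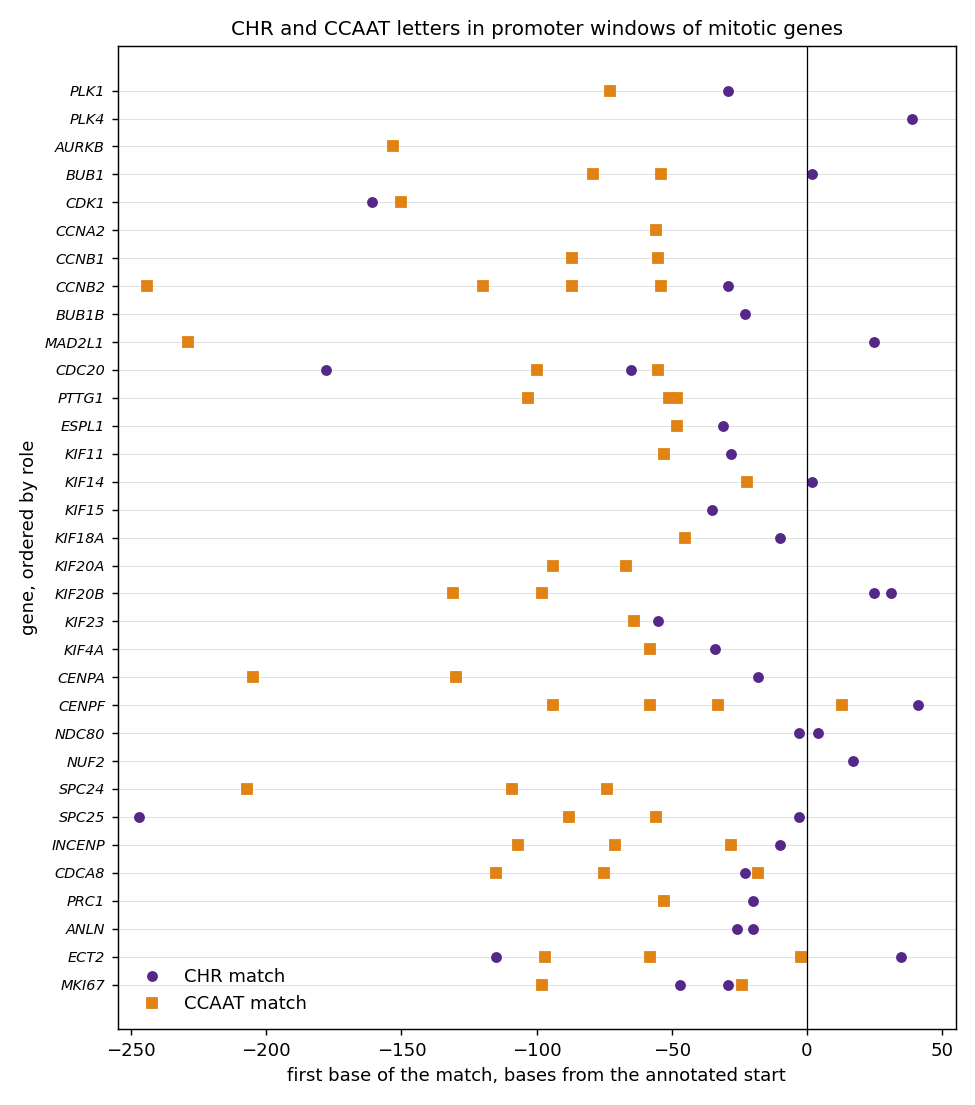
Position of each CHR match (circles) and CCAAT match (squares) in bases from the annotated start, for the 33 of 37 windows with a match, 1 gene per line in order of role. Most CHR matches lie within 60 bases of the start, while CCAAT matches spread further upstream.

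All 43 genes were well read: the lowest count of any of them in any library was 210, and all passed the filter on low counts in every comparison. Per length of the canonical transcript, their mean levels in JJN3 with DMSO ran from 6.85 RPKM for ESPL1 to 160.1 RPKM for PLK1, with a median of 40.1 RPKM over the 43 genes. PLK1 was also highest in the libraries labelled H929 THZ1 (169 RPKM), whereas TPX2 was highest in JJN3 with THZ1 (219 RPKM) and PTTG1 in the libraries labelled H929 DMSO (168 RPKM). The median RPKM was 38.1 in JJN3 with THZ1, 29.6 under the H929 DMSO label and 35.3 under the H929 THZ1 label. In total the 43 genes took 0.678% and 0.688% of the counts of JJN3 with DMSO and 0.646% and 0.641% with THZ1. Under the H929 labels they took 0.521% and 0.553% with DMSO and 0.635% and 0.638% with THZ1. The mean CPM of 22 of the 43 genes was lowest in the libraries labelled H929 DMSO. Replicates were close, with a median coefficient of variation over the genes of 2.47% to 4.64% in the 4 groups and at most 18.0%, for MKI67 in JJN3 with THZ1.

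**Figure D2:**
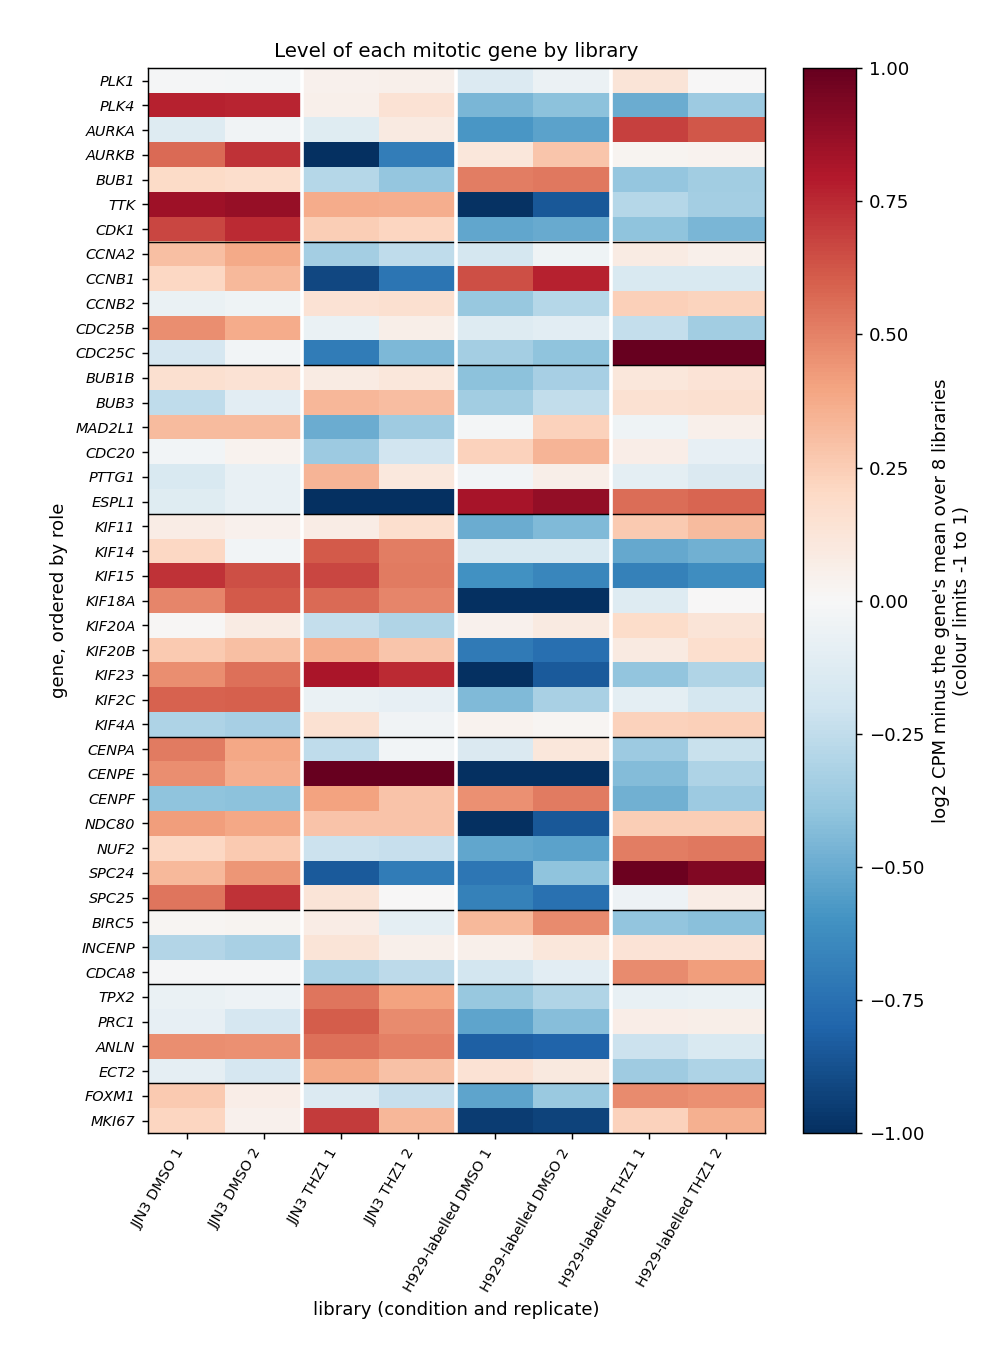
Level of the 43 genes (lines, ordered by role) in the 8 libraries (columns), as log2 CPM minus the mean of that gene over the 8 libraries. Blue is below and red above the mean, with colours limited to -1 and 1. The replicates of a group resemble each other, and no single colour runs down the column of any group.

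To learn how the mitotic genes responded to THZ1 in JJN3, counts were compared between the 2 THZ1 and the 2 DMSO libraries with edgeR's quasi-likelihood test over all 13984 genes that passed the filter. A gene was called at the limits of the study, which require an adjusted p-value (Benjamini-Hochberg over all genes tested) below 0.05 together with a log2 fold change of more than 0.5 in either direction. The genes did not move as a block: 11 of the 43 fell, 5 rose and 27 were not called. The fallen genes were AURKB, BUB1, PLK4, CCNA2, CCNB1, MAD2L1, ESPL1, KIF2C, CENPA, SPC24 and SPC25, and those that rose were CENPE, CENPF, PRC1, TPX2 and BUB3. The share that fell was 25.6%, close to the 21.3% of all genes tested, and the share that rose was 11.6%, compared with 20.6% of all genes. The median log2 fold change of the 43 genes was -0.08, and that of all genes tested was -0.00036. On the adjusted p-value alone, 20 of the 43 were lower and 13 higher, and of all 13984 genes 4212 were lower and 4035 higher. The 2 THZ1 libraries lay below both DMSO libraries for 22 genes, above both for 16, and overlapped with them for 5. How often the groups lie apart over all genes was not counted. In bulk RNA, fewer cells that express a gene and less RNA per cell cannot be told apart. Scaled by total counts in place of TMM, the median of all genes shifted to -0.10, and 16 of the 43 were lower, with TTK, CDK1, CDC25B, CDC25C and NUF2 added, and 3 higher, without TPX2 and BUB3. Of all 13984 genes, 3639 were lower and 2353 higher with that scaling. Without the library of THZ1 replicate 2, the median log2 fold change was -0.05 for the 43 genes and -0.02 for all genes.

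**Figure D3:**
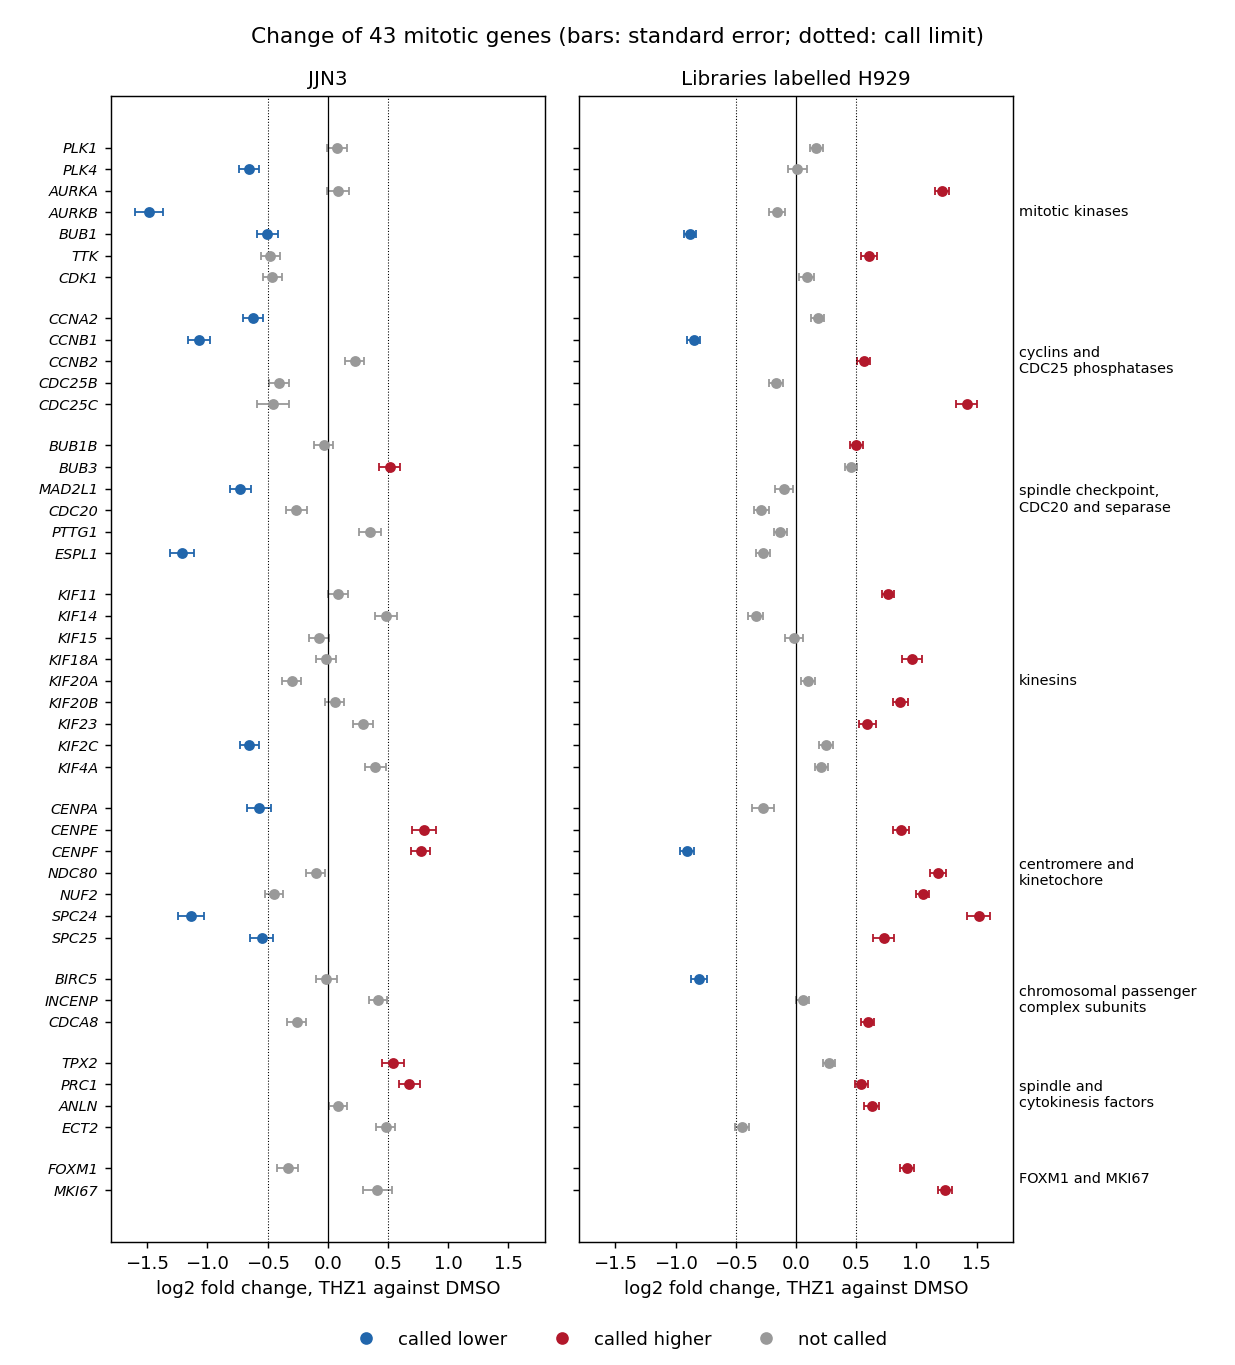
The log2 fold change, THZ1 against DMSO, of each of the 43 genes with its standard error, in JJN3 (left) and between the libraries labelled H929 (right), with 2 libraries per group. Blue points were called lower, red points higher and grey points neither, and dotted lines mark a log2 fold change of 0.5 in each direction. JJN3 had 11 blue and 5 red points, and the H929 labels 4 blue and 19 red.

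Among the kinases in JJN3, AURKB, PLK4 and BUB1 fell, 3 of 7, while AURKA and PLK1 were not called. None rose by edgeR's test, and 0 were higher at an unadjusted p under 0.05. AURKB (chr17:8108051-8113918, minus strand, hg19), the Aurora kinase of the chromosomal passenger complex, was read at 103 and 115 CPM with DMSO and 33.6 and 43.1 CPM with THZ1. Both THZ1 libraries were far below both DMSO libraries, and the log2 fold change of -1.49 (standard error 0.12, adjusted p = 2.48e-06) was the most negative of the 43 genes. AURKA, the Aurora kinase of spindle poles, had 107 and 113 CPM with DMSO and 107 and 124 CPM with THZ1, which overlapped (log2 fold change 0.087, adjusted p = 0.434). PLK4, which starts centriole duplication, went from 79.6 and 79.2 CPM to 48.3 and 51.6 CPM (log2 fold change -0.65, standard error 0.082, adjusted p = 5.45e-05). PLK1, which acts at centrosomes, kinetochores and the midbody, was read at 347 and 345 CPM under DMSO and 359.5 and 361 CPM under THZ1. Its log2 fold change of 0.075 had a standard error of 0.081 (adjusted p = 0.452), and its sign turned to -0.028 with scaling by total counts. BUB1, a kinase of the spindle checkpoint, fell from 450.1 and 443 CPM to 322 and 302 CPM, and its log2 fold change of -0.50 (adjusted p = 0.000417) lay at the limit. It went to -0.46, past the limit no longer, without THZ1 replicate 2, and to -0.49 with DESeq2's size factors and -0.48 with the filter of 1 CPM. TTK, the kinase that starts checkpoint signalling, and CDK1, the kinase that drives entry, were just inside the limit, with log2 fold changes of -0.48 (adjusted p = 0.000304) and -0.46 (adjusted p = 0.000457). TTK was read at 192 and 195 CPM with DMSO and 138 and 137 CPM with THZ1, and CDK1 at 163 and 173 CPM and 122 and 119.6 CPM. Both were called with total counts or no filter, and without DMSO replicate 1, at -0.51 and -0.52.

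Of the partners of CDK1 in JJN3, CCNB1 and CCNA2 fell, 2 of 5 cyclins and CDC25 phosphatases. None rose past the limit, although 1 (CCNB2) was higher on the adjusted p-value of edgeR's test alone. CCNB1 (chr5:68462962-68474072, plus strand, hg19), cyclin B1, was read at 241 and 262 CPM with DMSO and 111 and 126 CPM with THZ1. Both THZ1 libraries were far below both DMSO libraries, with a log2 fold change of -1.07 (standard error 0.091, adjusted p = 4.21e-06). CCNB2, cyclin B2, was slightly above its DMSO level instead, at 141 and 144 CPM and 164 and 165 CPM (log2 fold change 0.22, adjusted p = 0.0271), inside the limit. CCNA2, the cyclin A of S phase and early mitosis, fell from 211 and 222 CPM to 135 and 143 CPM, with a log2 fold change of -0.62 (adjusted p = 7.03e-05). The phosphatases that remove the inhibitory phosphates of CDK1 were lower inside the limit, CDC25B with -0.41 (adjusted p = 0.00162) and CDC25C with -0.46 (adjusted p = 0.0109) on the log2 scale. CDC25C was called lower without DMSO replicate 1 (-0.54) or THZ1 replicate 2 (-0.59).

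Of the 6 genes of the checkpoint, CDC20 and separase, 2 fell and 1 rose in JJN3. ESPL1 (chr12:53662083-53687422, plus strand, hg19) encodes separase, the protease that cuts cohesin at anaphase. It went from 44.6 and 46.1 CPM to 19.1 and 19.7 CPM, with a gap between the groups several times the distance between replicates (log2 fold change -1.21, standard error 0.097, adjusted p = 2.91e-06). PTTG1, which encodes securin, the inhibitor of separase, was read at 107 and 113 CPM and 150.4 and 128 CPM, higher but inside the limit (log2 fold change 0.35, adjusted p = 0.00671). MAD2L1, whose protein binds CDC20 in the checkpoint, fell from 96.9 and 96.8 CPM to 54.9 and 60.8 CPM (log2 fold change -0.73, adjusted p = 3.05e-05). BUB3, the scaffold that brings BUB1 and BUB1B to kinetochores, rose from 204 and 226 CPM to 307 and 301 CPM (log2 fold change 0.51, adjusted p = 0.000388), at the limit. The call was lost in 5 alternatives, with DESeq2 (0.49), with no filter (0.47), with 1 fit of all 8 libraries (just under 0.5), with scaling by total counts (0.41) and without DMSO replicate 1 (0.43). BUB1B, the checkpoint protein BubR1, had 187 and 185 CPM and 178 and 181 CPM (log2 fold change -0.036, adjusted p = 0.711). CDC20, the activator of the anaphase-promoting complex, had 154 and 160.5 CPM and 122 and 137 CPM, a log2 fold change of -0.26 inside the limit (adjusted p = 0.0213).

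Of the 9 kinesins in JJN3, only KIF2C fell past the limit on the fold change, and none rose past it. On the adjusted p-value of edgeR's test alone, 3 (KIF14, KIF4A and KIF23) were higher and 2 (KIF2C and KIF20A) lower. The median of the 9 kinesins was 0.06 on the log2 scale. KIF2C, a kinesin that takes microtubules apart and corrects wrong attachments, fell from 198 and 199 CPM to 125 and 125 CPM (log2 fold change -0.65, standard error 0.077, adjusted p = 3.42e-05). KIF11, the motor that pushes spindle poles apart, had means of 197 ± 2.87 (SD, n = 2) CPM and 207 ± 9.61 (SD, n = 2) CPM (log2 fold change 0.083, adjusted p = 0.392). KIF14, a kinesin of cytokinesis, had 108 and 91.8 CPM and 143 and 134 CPM, just inside the limit at 0.48 (adjusted p = 0.000971), and was called higher with DESeq2's size factors or the filter of 1 CPM (0.50 in each), without DMSO replicate 1 (0.59) or THZ1 replicate 2 (0.54). The other 6 had log2 fold changes from -0.30 for KIF20A, a motor of the midzone, to 0.39 for KIF4A, a chromosome-bound motor, with 0.29 for KIF23 of the centralspindlin complex, 0.057 for KIF20B, -0.015 for KIF18A and -0.076 for KIF15.

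Centromere and kinetochore genes moved in both directions in JJN3, where 3 of 7 fell and 2 rose. The large outer proteins rose: CENPE (chr4:104026506-104119602, minus strand, hg19), the kinesin of kinetochores, went from 158 and 148 CPM to 288 and 238 CPM (log2 fold change 0.80, standard error 0.099, adjusted p = 4.87e-05). CENPF (chr1:214776528-214837917, plus strand, hg19), a protein of the outer kinetochore and nuclear envelope, went from 133 and 132 CPM to 233 and 214 CPM, with groups well apart (log2 fold change 0.77, standard error 0.081, adjusted p = 1.61e-05). CENPA, the histone variant that marks centromeres, fell from 58.2 and 53.1 CPM to 34.1 and 39.8 CPM (log2 fold change -0.57, adjusted p = 0.000555), a call lost without THZ1 replicate 1 (-0.47). The NDC80 complex, which binds microtubules, has 4 subunits, and all had negative log2 fold changes. SPC24 (chr19:11242196-11266483, minus strand, hg19), of the end that faces the centromere, was read at 37.7 and 41 CPM with DMSO and 16.8 and 18.6 CPM with THZ1 (log2 fold change -1.14, standard error 0.11, adjusted p = 8.15e-06). Its partner at that end, SPC25, fell from 55 and 62.8 CPM to 41.6 and 38 CPM (-0.55, adjusted p = 0.000583), and was no longer past the limit without DMSO replicate 2 (-0.46) or THZ1 replicate 2 (-0.49). The subunits of the microtubule end were not called, NUF2 with -0.45 (adjusted p = 0.000486) and NDC80 with -0.10 (adjusted p = 0.275).

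By edgeR's test 0 of the 3 further subunits of the chromosomal passenger complex were called in JJN3, while AURKB, its kinase, had the most negative change of the 43 genes. On the adjusted p-value of that test alone, CDCA8 was lower and INCENP higher, both inside the limit on the fold change. BIRC5, which encodes survivin, was read at 66.7 and 67 CPM with DMSO and 69.5 and 61.7 CPM with THZ1, and the groups overlapped (log2 fold change -0.013, adjusted p = 0.91). INCENP, the scaffold, had 102 and 99.1 CPM and 136 and 129 CPM (log2 fold change 0.42, adjusted p = 0.000807), and CDCA8, borealin, had 134 and 134 CPM and 109 and 113 CPM (-0.26, adjusted p = 0.0126). The spindle and cytokinesis factors had 2 of 4 higher, and 0 were lower also at an unadjusted p under 0.05. PRC1, which bundles the microtubules of the midzone, rose from 181 and 171 CPM to 291 and 266 CPM (log2 fold change 0.68, standard error 0.085, adjusted p = 5.11e-05). Its count is uncertain, because 34.3% of its exon bases are overlapped by exons of the opposite strand and 57.6% by those of another gene model of its own strand, and the strand setting of the counting was not stated. The same doubt holds for 15.9% of the exon bases of FOXM1 and 12.8% of those of PLK1, overlapped on the opposite strand, and for 10.2% of those of BUB1B, overlapped on its own strand. In the other 39 genes less than 10% of the exon bases were overlapped on either strand. TPX2, which activates AURKA on the spindle, rose from 524 and 532 CPM to 795 and 726 CPM (log2 fold change 0.54, adjusted p = 0.000507), and was not past the limit without THZ1 replicate 1 (0.47) or with total counts (0.44). ANLN, the anillin of the cleavage ring, had a log2 fold change of 0.082, and ECT2, the activator of RhoA in cytokinesis, 0.48 (adjusted p = 0.000355), which was called without DMSO replicate 1 (0.50) or THZ1 replicate 2 (0.52). FOXM1, the transcription factor that activates many of these genes, was read at 172 and 151 CPM and 130.4 and 123 CPM (-0.33, adjusted p = 0.00682). MKI67, which encodes the proliferation antigen Ki-67, had 391 and 346 CPM and 547 and 423 CPM, with the widest spread between replicates, relative to the mean, of the 43 genes (0.41, standard error 0.12, adjusted p = 0.0122). Without THZ1 replicate 2 it was called higher (0.58).

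**Figure D4:**
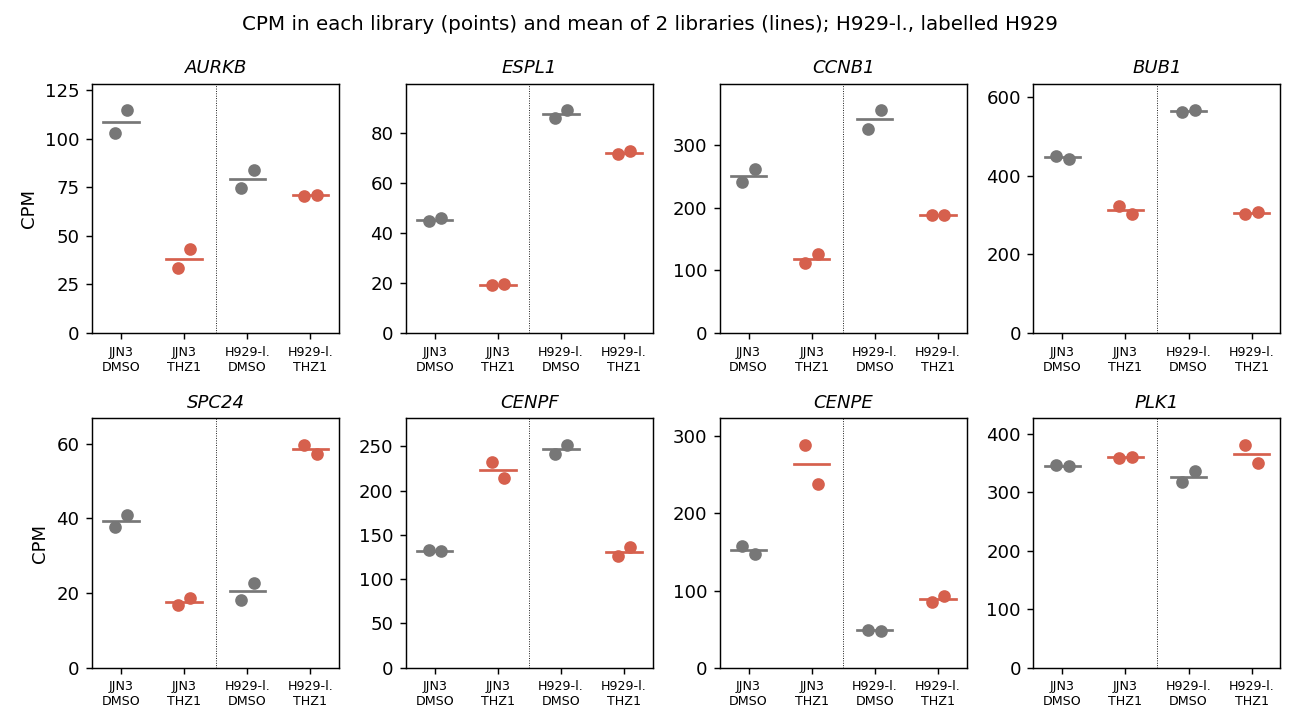
CPM of 8 of the genes in each library (points; grey DMSO, red THZ1) with the mean of the 2 libraries as a line, on axes that start at 0. In JJN3, AURKB, ESPL1, CCNB1, BUB1 and SPC24 are lower with THZ1, CENPF and CENPE are higher, and PLK1 is at 347 and 345 CPM with DMSO and 359.5 and 361 CPM with THZ1, while between the H929 labels SPC24 and CENPF differ in the opposite direction.

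What the genes share beyond their role was described for JJN3 by transcript length and promoter letters. The canonical transcripts of the 5 genes that rose had a median length of 7703 bases, those of the 11 that fell 2748 bases, and those of the 27 not called 3119 bases. CENPF (10290 bases), CENPE (8541 bases) and BUB3 (7703 bases) are among the longest, whereas AURKB has 1243 bases. The median of the genes that rose is the length of BUB3, whose call was lost in 5 alternatives. TPX2 (3473 bases) and PRC1 (3072 bases, with an uncertain count) also rose and are near the median of those not called. ESPL1, at 6618 bases, is long and fell. Across the 43 genes, the rank correlation of the log2 fold change with length was 0.42 (Spearman), and over the 13548 genes tested with a known transcript it was 0.12. These are descriptions across genes measured in the same 4 libraries, which are not independent. Between the H929 labels the rank correlation with length was -0.04 over the 43 genes and 0.06 over all genes tested with a known transcript. Over all genes tested in JJN3, the median length was 2507 bases for those that fell and 3588 bases for those that rose. With GC content the rank correlation in JJN3 was -0.15 in the 43 genes and -0.09 in all genes. CHR letters were in the promoter windows of 6 of 11 genes that fell, 2 of 3 that rose with a window, and 19 of 23 not called. For CCAAT the counts were 9 of 11, 2 of 3 and 16 of 23. The windows of PLK1, ESPL1 and PRC1 printed above each hold 1 CCAAT and 1 CHR match, at different spacings and with the CCAAT match of ESPL1 on the other strand, and these genes had log2 fold changes of 0.075, -1.21 and 0.68. The genes with the same layout that were not printed ran from -0.73 for MAD2L1 to 0.48 for KIF14.

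**Figure D5:**
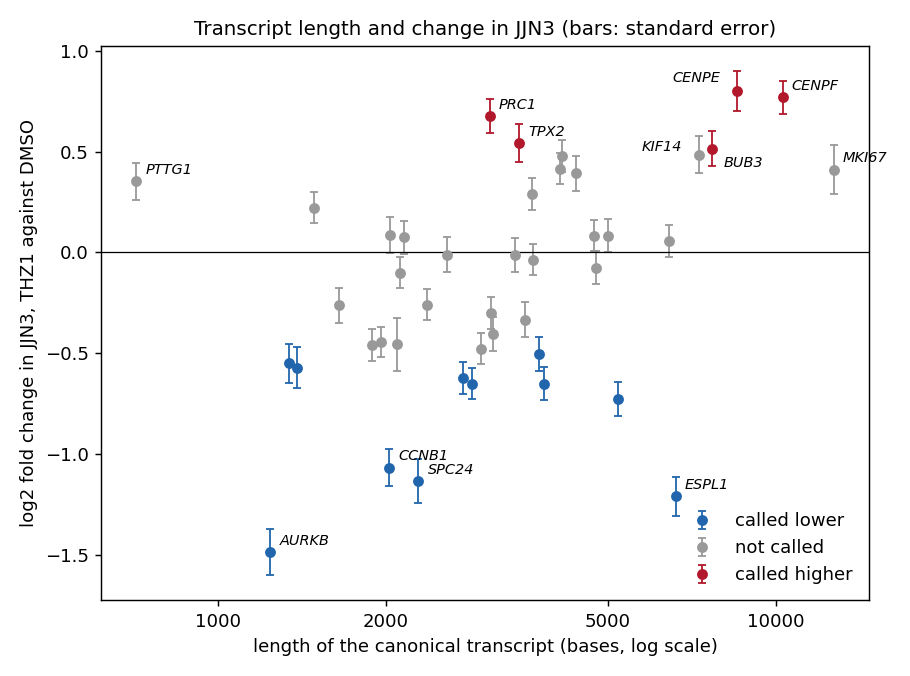
The log2 fold change in JJN3 with its standard error (vertical axis) against the length of the canonical transcript in bases (horizontal axis, log scale) for the 43 genes, coloured by call. CENPE and CENPF, at 8541 and 10290 bases, rose, and AURKB, at 1243 bases, fell, while ESPL1 fell at 6618 bases. PRC1 and TPX2 rose at 3072 and 3473 bases.

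Other genes of mitosis were set beside these 43 in JJN3 from 5 lists of 124 genes, of which 122 were tested. Of these, 37 fell (30.3%, against 21.3% of all genes tested) and 9 rose (7.38%, against 20.6%), with a median log2 fold change of -0.24. The kinetochore list had the most, with 14 of 33 tested lower, 1 higher and a median of -0.43. In the anaphase-promoting complex 5 of 18 were lower and 0 higher, with 1 higher on the adjusted p-value alone but inside the limit (median -0.25). Among regulators of mitotic entry and exit 9 of 28 were lower and 3 higher (median -0.17), among spindle, motor and cytokinesis genes 6 of 29 were lower and 3 higher (median -0.03), and among DREAM and MuvB regulators 3 of 14 were lower and 2 higher (median -0.14). Among those whose log2 CPM averaged 3 or more, the lowest were E2F5, a repressive E2F factor (-1.21, adjusted p = 2.11e-05), CENPM, a subunit of the inner kinetochore (-1.13, adjusted p = 4.28e-06), and PKMYT1, a kinase that inhibits CDK1 (-1.12, adjusted p = 1.19e-05). The highest were NEK7, a kinase of spindle assembly (1.14, adjusted p = 1.73e-06), CLASP1, which holds growing microtubule ends (0.74, adjusted p = 2.74e-05), and CENPC, which ties the centromere to the outer kinetochore (0.68, adjusted p = 7.73e-05).

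The same comparison was made between the libraries labelled H929, where it can hold the source of the cells as well as THZ1. Of the 43 genes, 4 were lower and 19 higher under the THZ1 label, and the other 20 were not called. These shares were 9.30% and 44.2%, and of all 14863 genes tested 32.6% were lower and 33.1% higher. The median log2 difference was 0.25 over the 43 genes and 0.01 over all genes. BUB1 (-0.88), CCNB1 (-0.85), CENPF (-0.90) and BIRC5 (-0.80) were the genes that were lower. BUB1 was read at 561 and 566 CPM under DMSO and 302 and 309 CPM under THZ1 (adjusted p = 2.21e-10). CCNB1 had 326 and 355 CPM and 188 and 188 CPM (adjusted p = 6.6e-10). Both were also lower in JJN3. CENPF, at 241 and 251 CPM and 126 and 137 CPM (adjusted p = 3.99e-10), went the other way from JJN3, and BIRC5, at 82.6 and 91.5 CPM and 50.1 and 49.2 CPM (adjusted p = 1.82e-08), had not been called there. Without DMSO replicate 1 the median log2 difference was 0.21 for the 43 genes and 0.003 for all genes. Without DMSO replicate 2 it was 0.32 and 0.03.

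Higher under the H929 THZ1 label were 5 of 7 centromere and kinetochore genes, including the whole NDC80 complex. SPC24 was read at 18.2 and 22.8 CPM under the DMSO label and 59.6 and 57.3 CPM under the THZ1 label (log2 difference 1.52, standard error 0.093, adjusted p = 3.11e-10). NDC80 had 63.5 and 71.5 CPM and 152 and 153 CPM (1.18, adjusted p = 5.54e-11), NUF2 a log2 difference of 1.05 (adjusted p = 4.11e-11) and SPC25 of 0.73 (adjusted p = 8.4e-07). CENPE, at 49.4 and 47.8 CPM and 85.1 and 92.6 CPM (0.88, adjusted p = 5.28e-09), was higher here as in JJN3, and so was PRC1 (0.54, adjusted p = 1.36e-07), whose call was lost without DMSO replicate 1 (0.48). Among the kinases AURKA differed most, with 77.8 and 80.4 CPM and 187 and 178 CPM (1.21, adjusted p = 8.59e-12), and TTK was higher too (0.61, adjusted p = 3.9e-07). AURKB, at 74.9 and 84.1 CPM and 70.8 and 71 CPM, had a difference of -0.16 (adjusted p = 0.037), inside the limit. CDC25C was read at 16.5 and 15.8 CPM and 43.5 and 42.2 CPM (1.42, adjusted p = 2.5e-10) and CCNB2 differed by 0.56. Of the kinesins, KIF18A (0.96), KIF20B (0.87), KIF11 (0.77) and KIF23 (0.59, and 0.49 without DMSO replicate 1) were higher, 4 of 9. MKI67, at 175 and 177 CPM and 396 and 430.2 CPM (1.24, adjusted p = 7.63e-12), and FOXM1, at 99.7 and 111 CPM and 199 and 197 CPM (0.92, adjusted p = 5.04e-10), were both higher. CDCA8 (0.60), ANLN (0.63) and BUB1B (0.50) complete the genes that were higher, BUB1B at the limit and past it no longer without DMSO replicate 1 or THZ1 replicate 2, with no filter or with 1 fit of all 8 libraries. Separase (ESPL1, -0.27), securin (PTTG1, -0.13), PLK1 (0.17) and CDK1 (0.088) were not called. The 20 genes not called had differences from -0.45 for ECT2 to 0.46 for BUB3, which had risen in JJN3.

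To compare the responses, an interaction term was fitted to all 8 libraries, as the log2 difference between the H929 labels minus the log2 fold change of JJN3. It was called for 26 of the 43 genes, 22 positive and 4 negative. The shares were 51.2% and 9.30%, and over all 16122 genes tested 28.1% were positive and 25.5% negative. The largest was SPC24 at 2.66 (adjusted p = 3.03e-10), which fell in JJN3 but was higher with the H929 THZ1 label, as was SPC25 at 1.29 (adjusted p = 3.08e-07). CDC25C followed at 1.88 (adjusted p = 1.89e-08), then NUF2 at 1.51 (adjusted p = 9.62e-10) and AURKB at 1.34 (adjusted p = 5.34e-07). The most negative was CENPF at -1.66 (adjusted p = 7.49e-10), ahead of ECT2 at -0.92, KIF14 at -0.81 and BIRC5 at -0.78. For CCNB1, CENPE and PRC1, called in the same direction in both comparisons, the interaction was 0.23 (adjusted p = 0.0815), 0.084 (adjusted p = 0.591) and -0.13 (adjusted p = 0.296). BUB1, also called lower in both, had -0.37 (adjusted p = 0.00335). Thus 4 genes were called in the same direction in both comparisons, 3 (SPC24, SPC25 and CENPF) in opposite directions, and 11 in neither. The sign was the same for 24 of the 43 genes (55.8%), and the log2 values of the comparisons correlated at 0.08 across the 43 genes (Pearson), a description over genes that share the same libraries. The agreement of calls, the share with the same sign and the correlation were not computed over all genes. They therefore do not set the 43 genes apart from other genes. An interaction can come from the source of the cells under the H929 labels as well as from a different response to THZ1. These cannot be told apart here.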

How the data were processed

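The authors aligned single-end reads of 50 bases to hg19 with STAR 2.5.2a, kept uniquely mapping reads and deposited raw featureCounts counts per Ensembl gene for 8 libraries. The strand setting was not stated. Their tables of DESeq2 1.12.4 comparisons (mean, log2 fold change, standard error, statistic and p-values) were not used except for the gene symbols in the JJN3 table. Groups followed the sample labels. From the counts, edgeR 4.0.16 in R 4.3.3 (TMM, filterByExpr, quasi-likelihood test, Benjamini-Hochberg over all genes tested) compared THZ1 with DMSO within each line label and, over all 8 libraries, the difference between the responses. A standard error is the log2 fold change over the square root of its F statistic. CPM uses TMM-scaled totals over the 8 libraries, and RPKM divides the CPM by the length in kilobases of the canonical GENCODE transcript on GRCh37. With 2 libraries against 2, an exact permutation test could not go below p = 0.3333, so p-values rest on the spread shared across genes. Tested on simulated counts with 200 changed genes, the fit called 181 of them, with 4 false calls, at the spread of JJN3 (13984 genes). At the spread of the H929 labels (14863 genes) the fit called 187 of 200, with 1 false call. Far more genes than 200 were called in the data, and recovery was not split by the size of the change. These counts therefore do not show how reliable calls near the limit on the fold change are. Replicates differed by more than counting noise in every group, so none was treated as a copy of another library, which does not show separate cultures. Alternatives covered DESeq2 1.42.0, its size factors or total counts, no filter or 1 CPM in 2 libraries, 1 fit of all 8 libraries, other limits on the fold change, a block for the replicate number, and fits without 1 library. All 43 genes are named. Of the other mitotic lists the 3 largest falls and 3 largest rises called in JJN3 at an average log2 CPM of at least 3 are named, with marker genes that check a label. The 43 genes and the lists were chosen with earlier results of these data known.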

Additional observations from a re-analysis of the deposited data

Results flagged for a closer look

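By the interaction test of edgeR with 2 libraries per group, 26 of the 43 genes were called, 22 positive and 4 negative. Over all 16122 genes tested, 28.1% were positive and 25.5% negative. Each value below is the log2 difference under the H929 labels minus the log2 fold change in JJN3. Among the kinases it was 1.34 for AURKB, 1.14 for AURKA, 1.10 for TTK, 0.67 for PLK4 and 0.56 for CDK1. Among the cyclins and CDC25 phosphatases it was 1.88 for CDC25C and 0.81 for CCNA2. For the checkpoint and separase it was 0.95 for ESPL1, 0.64 for MAD2L1 and 0.55 for BUB1B. Kinesins had 0.99 for KIF18A, 0.91 for KIF2C, 0.82 for KIF20B, 0.69 for KIF11 and -0.81 for KIF14. At the kinetochore the values were 2.66 for SPC24, 1.51 for NUF2, 1.29 for NDC80, 1.29 for SPC25 and -1.66 for CENPF. The remaining genes were CDCA8 (0.87), ANLN (0.56), ECT2 (-0.92), BIRC5 (-0.78), FOXM1 (1.26) and MKI67 (0.84). Between the H929 labels, a different response to THZ1 and a different source of cells cannot be told apart.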

How the results depend on the processing

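In JJN3, 11 of the 16 called genes (AURKB, CCNA2, CCNB1, CENPE, CENPF, ESPL1, KIF2C, MAD2L1, PLK4, PRC1 and SPC24) kept their call under every alternative tool, scaling, filter, fit, block and left-out library, and 19 of the 27 others stayed uncalled. Between the H929 labels 20 of 23 kept theirs, the exceptions being BUB1B, KIF23 and PRC1. On the adjusted p-value alone, JJN3 had 20 lower and 13 higher, and the H929 labels 12 lower and 25 higher, with 34 interactions. Over all genes, 4212 of 13984 were then lower and 4035 higher in JJN3. Between the H929 labels 6081 of 14863 were lower and 6095 higher, and of 16122 interactions 4783 were negative and 5209 positive. A limit of 1 on the log2 scale left 4 lower and 0 higher in JJN3, 0 lower and 6 higher between the H929 labels, and 10 interactions. Over all genes this limit left 1006 lower and 1397 higher in JJN3, and 3146 lower and 3501 higher between the H929 labels. It left 2920 negative and 3179 positive interactions. The counts of 0, by edgeR, hold at any p, and by DESeq2 too, since no alternative gave a log2 fold change above 0.93 in JJN3 or below -0.96 between the H929 labels. Total counts gave 3 of the 43 higher in JJN3, and 2353 of all genes. Leaving out each library in turn gave 10 to 14 lower and 4 to 8 higher in JJN3, 4 lower and 16 to 20 higher between the H929 labels, and 26 to 27 interactions. The cause of these shifts was not tested.

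With the replicate number as a block, there were 11 lower and 5 higher in JJN3, 4 lower and 19 higher between the H929 labels, and 26 interactions, so it changed no count of the 43 genes. Over all genes, 3013 of 13984 were then lower and 2889 higher in JJN3. Between the H929 labels 4783 of 14863 were lower and 4855 higher, and of 16122 interactions 4034 were negative and 4457 positive. Deviations of same-numbered libraries correlated at 0.01 in JJN3 and -0.03 under the H929 labels, so the numbers do not establish pairs.

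Signs turned only for genes that were not called. In JJN3, total counts gave -0.028 for PLK1, -0.015 for AURKA, -0.019 for KIF11, -0.047 for KIF20B and -0.021 for ANLN. DESeq2's size factors gave 0.0019 for KIF18A and 0.0043 for BIRC5, and the filter of 1 CPM 0.0035 and 0.0058. Leaving out 1 library gave ranges of -0.024 to 0.19 for AURKA, -0.093 to 0.036 for KIF18A and -0.10 to 0.073 for BIRC5 in JJN3, and of -0.047 to 0.083 for PLK4, -0.23 to 0.047 for MAD2L1 and -0.036 to 0.023 for KIF15 between the H929 labels. Between the H929 labels KIF15 had 0.0095 with DESeq2's size factors, 0.033 with total counts and 0.0071 with DESeq2.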

Other observations

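Among the other mitotic genes, 2 stood far apart between the H929 labels, and both were chosen after their values were seen. UBE2C, the ubiquitin-conjugating enzyme that works with the anaphase-promoting complex, was read 4 and 88 times under the H929 DMSO label and 3780 and 3614 times under the H929 THZ1 label. In JJN3 it was read 3184 and 3292 times (DMSO) and 2551 and 2914 times (THZ1), a log2 fold change of -0.053. PLK2, a relative of PLK1 that responds to stress, had counts of 0 and 1 (H929 DMSO label) and 52 and 73 (H929 THZ1 label), while in JJN3 it rose from 49 and 47 to 91 and 95 counts (log2 fold change 1.15, adjusted p = 0.000905). The 43 genes themselves showed no such gap, with a lowest count of 285 in the libraries labelled H929 DMSO.

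The 2 libraries labelled H929 DMSO differed from each other at genes that were high under the THZ1 label. The counts of UBE2C, SLAMF7 and FGFR3 were 4, 2 and 45 in replicate 1 and 88, 174 and 285 in replicate 2. SKA1, a kinetochore protein of the outer layer, was read 645 and 712 times here and 3173 and 3258 times under the H929 THZ1 label. The part that this difference between the replicates has in the values of the 43 genes was not tested beyond leaving out each library.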
